A study of Mus musculus with 2 samples.

Results

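Collagen chain genes encode the polypeptide chains from which collagen proteins are assembled. They were taken here as the protein-coding mouse genes whose symbol has the form Col, a type number, the letter a and a chain number, such as Col1a1 or Col18a1. The rule found 44 genes among 43346 Ensembl genes, of which 21474 are protein coding. Genes that contain a collagen-like stretch but carry another kind of symbol were not included.

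The data come from 2 total RNA-seq libraries of mouse hindbrain at embryonic day 13.5, labelled biological replicates 1 and 2. Both were made from B6NCrl embryos, with males and females pooled, and each started from 10 ng of RNA longer than 200 nt that had been extracted by the mirVana method. A SMARTer manual is among the cited protocols, spike-in RNAs were added, and the tissue carries no labelled treatment or mutation. The libraries have the same donor label but different biosample labels, so part of their spread may be technical, and since they form 1 group the only contrast is between libraries.

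In every collagen protein the chains wind around each other into a rope-like helix, and genes of the same type number usually supply chains of the same protein. Fibrillar collagens build the tension-bearing fibrils of connective tissue, network-forming type IV collagens build basement membranes, and a set led by types II, IX and XI is best known from cartilage. In the brain, fibrillar collagen is known mainly from the meninges and vessel walls, and basement membrane collagen from vessels and the pial surface. In bulk tissue, fewer cells of a type and less RNA per cell cannot be told apart.

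Sequences of 2 genes are shown first because the levels of their alternative forms are described further on. The first is exon 2 of Col2a1, which the gene's transcripts either include or skip. It encodes a cysteine-rich domain of the propeptide, and the form with it is known from precursor and non-cartilage tissues, while the form without it is known from mature chondrocytes. The exon lies at chr15:98000403-98000606 of GRCm38 on the minus strand, 204 bases with 67 whole codons in frame, and is given 5′ to 3′ with its 10 cysteine codons in capitals.
Col2a1 exon 2: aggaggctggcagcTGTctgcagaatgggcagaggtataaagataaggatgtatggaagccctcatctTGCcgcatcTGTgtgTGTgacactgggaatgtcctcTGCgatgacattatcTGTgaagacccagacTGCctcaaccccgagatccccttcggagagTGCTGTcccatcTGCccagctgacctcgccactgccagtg

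The second gene is Col9a1, whose transcripts begin at either of 2 starts, which lie 17577 bases apart on chromosome 1 for the quantified transcripts and 17593 bases apart in RefSeq. The upstream start gives the long chain best known from cartilage, and the downstream start gives a short chain that lacks the large amino-terminal domain and is known from cornea and vitreous. The 250 bases before each RefSeq start, on the plus strand, are taken from RefSeq on GRCm38.p6 at chr1:24177360-24177609 and chr1:24194953-24195202, with any match to a searched motif in capitals.
Col9a1 upstream start: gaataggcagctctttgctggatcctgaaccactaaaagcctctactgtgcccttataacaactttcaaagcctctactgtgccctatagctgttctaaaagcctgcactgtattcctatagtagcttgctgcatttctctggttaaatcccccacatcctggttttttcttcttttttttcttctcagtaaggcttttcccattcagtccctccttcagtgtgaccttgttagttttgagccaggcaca
Col9a1 downstream start: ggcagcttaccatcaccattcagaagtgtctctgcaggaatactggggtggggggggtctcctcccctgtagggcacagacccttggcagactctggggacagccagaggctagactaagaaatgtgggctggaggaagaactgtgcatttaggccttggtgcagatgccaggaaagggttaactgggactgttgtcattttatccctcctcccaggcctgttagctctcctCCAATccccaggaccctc
The motifs searched on both strands were TATAAA for the TATA box, the pentamer CCAAT bound by the factor NF-Y, and GGGCGG for the GC box bound by Sp-family factors. The downstream window holds 1 CCAAT whose first base lies 18 bases before the RefSeq start, and the upstream window holds none of the 3 motifs, so no matches overlap. The annotated start of the quantified downstream transcript lies 16 bases before the RefSeq start, inside that CCAAT, so the position holds for the RefSeq start only. Over all 32851 RefSeq promoter windows of the same length, the TATA motif occurs in 12.4%, the NF-Y motif in 33.8% and the GC motif in 32.7%. A match is a description of these letters only.

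Most collagen genes were expressed above a low threshold in this tissue, but their RNA was concentrated in a few of them. TPM is a transcript level corrected for length and scaled to the same total in each library, and genes that reached 1 TPM in each library were counted as detected. By this measure 31 of the 44 collagen genes were detected, or 70.5%, against 62.2% of all protein-coding genes. The summed TPM of the collagen genes was 1089 in replicate 1 and 891 in replicate 2, which was 0.115% and 0.0948% of the TPM of all Ensembl genes. In reads, the collagen genes held 107971 estimated counts of 32314725 in replicate 1 and 103439 of 37772709 in replicate 2, or 0.334% and 0.274%. The 3 highest genes, Col3a1, Col1a1 and Col1a2, carried 55.8% and 50.3% of the collagen TPM, and the 10 highest carried 84.4% and 84.0%.

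**Figure D1:**
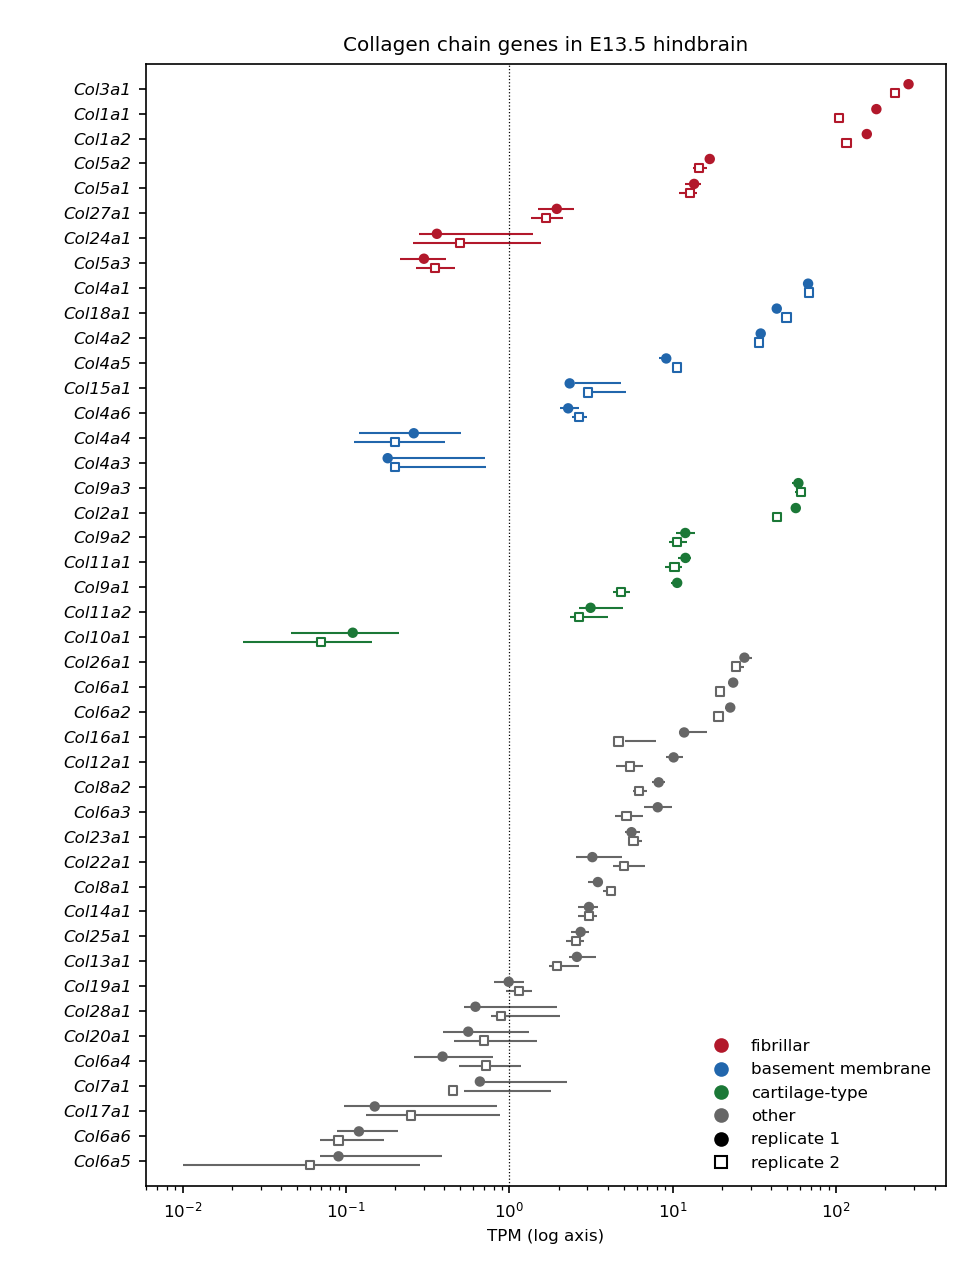
TPM (log axis) of the 44 collagen chain genes in replicate 1 (filled circles) and replicate 2 (open squares), coloured by class and ordered by level within each class, with bars for the deposited credibility intervals and a dotted line at a TPM of 1. Levels run from Col6a5 at a mean of 0.075 to Col3a1 at a mean of 253, and the intervals of genes left of the line are wide.

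The genes fall into 4 classes, fibrillar (types I, III, V, XXIV and XXVII), basement membrane (types IV, XV and XVIII), cartilage-type (types II, IX, X and XI) and other. The fibrillar class held 56.3% ± 3.65 (SD, n = 2 libraries) of the collagen TPM, the basement membrane class 16.8% ± 3.03, the cartilage-type class 14.5% ± 0.597 and the remaining 21 genes 12.5% ± 0.0192. The first-placed class was the same in both libraries by a wide margin, at 58.8% and 53.7%. The second place was not separated from the third beyond the spread: the basement membrane class held 14.6% and 18.9%, the cartilage-type class 14.1% and 14.9%. Without length correction the order was the same and the gap between the second and the third was wider, as the basement membrane genes held 18.1% and 23.5% of the collagen counts and the cartilage-type genes 10.3% and 10.4%. By the median over all members the cartilage-type class came second, with a median log2(TPM + 1) of 3.94 ± 0.101 for fibrillar, 3.59 ± 0.141 for cartilage-type, 2.66 ± 0.169 for basement membrane and 2.03 ± 0.0025 for other genes. That order depended on the low genes. Over members whose mean TPM reached 1 the basement membrane class came second, at 4.29 against 3.61 for cartilage-type. Members of a class are not replicates, so these values describe the classes and carry no test.

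**Figure D2:**
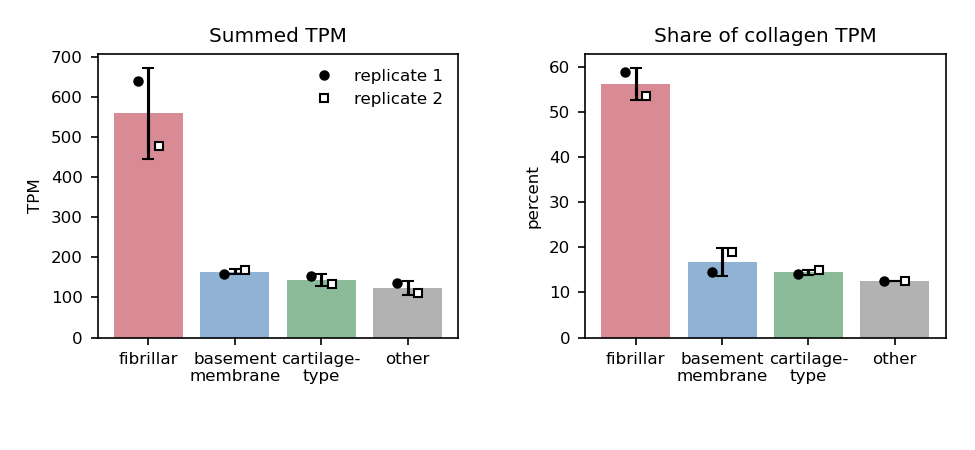
Summed TPM (left, TPM) and share of the collagen TPM (right, percent) of the 4 collagen classes; bars are means, error bars the SD over 2 libraries, and points the libraries. The fibrillar bar stands at 56.3% and the other classes between 12.5% and 16.8%.

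A count test, described next, called some collagen genes by their share of the reads. Called lower in replicate 2 were chains of types I, II, III, V, VI, XI, XII, XVI and XXVI, with Col8a2 and Col9a1. Called higher were Col4a5, Col18a1, Col8a1 and Col22a1. Counts were compared per gene with an exact binomial test (two-sided, Benjamini-Hochberg adjustment over 19687 genes with at least 10 counts), which asks whether a gene's share of the reads differed by more than counting error. The test sets 1 library against the other and says nothing of conditions or of the spread between samples. All 44 collagen genes entered the test, and 15 were lower in replicate 2 and 4 higher. Of all genes tested, 5.49% were lower and 7.07% higher. The same shares belong beside the counts of called genes in each class and list below. Among the 28 collagen genes with at least 500 counts 14 were lower and 4 higher, beside 6.82% and 9.18% of all genes at that depth, a comparison added after the values were seen because the test depends on depth. The share of collagen genes called lower stood above that of all genes at either depth.

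The authors' credibility intervals of TPM gave a second view. Their level is not stated and they surround a posterior mean, so that a level may fall outside the bounds given for it, as 11 library values of 7 collagen genes did. The intervals of 11 collagen genes lay wholly lower in replicate 2 and those of 3 wholly higher, beside 4.21% and 3.86% of all genes tested. Both measures called 10 genes lower and 3 higher. Among the 32 collagen genes whose mean TPM reached 1, 21 were lower in replicate 2 and 11 higher on the log2(TPM + 1) scale, with a median log2 ratio of replicate 2 over replicate 1 of -0.16. The same median over all 15878 such genes was -0.01, with 54.3% lower. Scaling by the spike-in RNAs in place of TMM, which scales to the bulk of the genes, shifts every gene by -0.14 on the log2 scale, and 25 of these collagen genes then lay lower and 7 higher in CPM, beside 82.7% of all 15878 genes lower. With that scaling the count test called 20 collagen genes lower and 3 higher, beside 37.5% and 2.82% of all genes. As most genes then lay lower in replicate 2, collagen genes or not, the 25 lower collagen genes show nothing particular by their number. Their median log2 ratio in CPM under spike-in scaling was -0.27, beside -0.13 over all 15878 genes, a difference that was not tested.

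**Figure D3:**
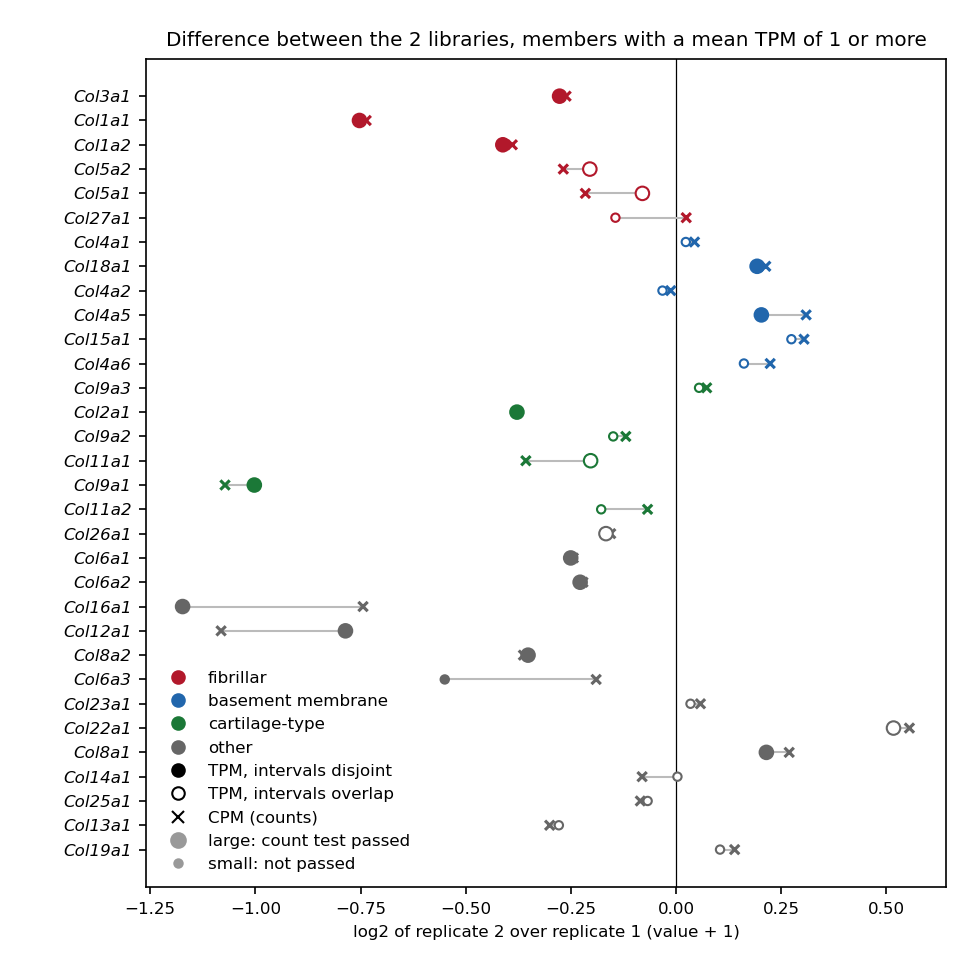
Log2 ratio of replicate 2 over replicate 1 (value + 1) for the 32 collagen genes whose mean TPM reached 1, as TPM (circles, filled where the deposited intervals are disjoint, large where the count test was passed) and as CPM, counts scaled to library size (crosses). The 6 fibrillar circles lie left of 0 and 5 of the 6 basement membrane circles right of it; grey lines join the 2 scales and are longest for Col16a1, Col6a3 and Col12a1.

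The fibrillar class was dominated by the chains of types I and III, and every detected member was lower in replicate 2 on the TPM scale. Col3a1, the chain of type III collagen of skin, vessels and loose connective tissue (ENSMUSG00000026043.14, chromosome 1, 45311538 to 45349706, GRCm38), was the highest collagen gene at a TPM of 277 in replicate 1 and 229 in replicate 2. Its intervals, 262 to 281 and 217 to 232, did not overlap (log2 ratio -0.28, adjusted p = 7.9e-86, exact binomial test). Col1a1 (ENSMUSG00000001506.10, chromosome 11, 94936224 to 94953042) encodes the α1 chain of type I collagen, the main fibril collagen of bone, tendon and skin. It stood at 176 in replicate 1 and 104 in replicate 2, on 21067 and 14710 counts. The gene was thus 1.69-fold higher in replicate 1, with intervals of 169.6 to 175.5 and 100.5 to 104.7 far apart. Its adjusted p in the exact binomial test was smaller than the software can hold.

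Col1a2 (ENSMUSG00000029661.12, chromosome 6, 4504814 to 4541544), the partner chain of type I, stood at 154 and 116, a log2 ratio of -0.41 (adjusted p = 5.8e-121, exact binomial test). The difference between the libraries was therefore smaller for Col1a2 than for Col1a1, and the order of the partners turned: the ratio of Col1a1 to Col1a2 was 1.14 in replicate 1 and 0.902 in replicate 2. Which of these chains was higher in the tissue cannot be read from 2 libraries.

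Type V collagen sits inside type I fibrils and limits their width, and its main chains were about an order of magnitude below those of type I. Col5a2 stood at 16.8 and 14.5 (log2 ratio -0.20, adjusted p = 2.4e-08, exact binomial test). Col5a1 stood at 13.5 and 12.7 (log2 ratio -0.08, adjusted p = 2.8e-05, exact binomial test). The intervals of both overlapped between the libraries, so the count test and the intervals gave different calls. On the scale of CPM, which takes no account of length, the log2 ratio of Col5a1 was -0.22. Its effective length, the usable transcript length as estimated by the authors, was 7588 bases in replicate 1 and 6824 in replicate 2. The ratio of Col5a1 to Col5a2 was 0.802 and 0.879.

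The remaining fibrillar genes were low. Col27a1, a fibrillar chain known from cartilage, stood at 1.95 and 1.67, and its sign depended on the scale, with a log2 ratio of -0.14 for TPM and 0.02 for CPM (adjusted p = 0.965, exact binomial test). Col5a3 (37 and 52 counts) and Col24a1 (25 and 29 counts) lay below a TPM of 1 in both libraries. In sum the fibrillar class went from 641 TPM in replicate 1 to 478 in replicate 2, a ratio of 0.747, with a median log2 ratio of -0.24 over its 6 detected members, 5 of which passed the count test.

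Markers of other tissues that a dissected hindbrain can carry are given beside these values. All 10 markers of meninges and mesenchyme were detected, led by Dcn and Lum, with a summed TPM of 189.85 in replicate 1 and 181 in replicate 2, and 3 of them were lower and 1 higher by the count test. The 6 bone markers, of which 2 were detected, summed to 20.7 and 16.4 over the list, led by Spp1 at 10.3 and 7.47 and Alpl at 8.32 and 5.64, and 3 of them were lower and 1 higher by the count test. The higher was Ibsp, at 0.02 in replicate 1 and 1.62 in replicate 2 on 1 and 78 counts (adjusted p = 6.8e-18, exact binomial test), and Bglap was at 0 and 0.12. The summed TPM of both lists was lower in replicate 2, as was that of the fibrillar genes, while single markers of each list differed in both directions. The meninges and mesenchyme sum differed by a smaller ratio than the fibrillar sum. Sums of the cartilage, pericyte and neuronal lists were also lower, and those of the remaining marker lists higher, so a lower sum was not particular to these lists. Dcn and Lum also stand in the list of fibril-binding proteoglycans below. The part of these markers in the fibrillar difference was not tested.

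The basement membrane collagens leaned the other way from the fibrillar ones: 5 of the 6 detected members were higher in replicate 2 on the TPM scale, 2 of them by the count test. Col4a1 and Col4a2 encode the chains of the type IV network found in nearly all basement membranes, vessels included. Col4a1 stood at 67.3 in replicate 1 and 68.45 in replicate 2, and Col4a2 at 34.5 and 33.75. Neither difference passed the exact binomial test (adjusted p = 0.151 and 0.864), and the log2 ratios were 0.02 and -0.03. Their ratio was nearly the same in both libraries, 1.95 and 2.03.

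These 2 genes lie head to head on chromosome 8 of GRCm38, Col4a1 at 11198423 to 11312826 on the minus strand and Col4a2 at 11312805 to 11449287 on the plus strand, and their annotated ends share 22 bases. Whether the counting used strand is not given in the sources used here, so reads from the shared bases cannot be assigned with certainty. Col4a4 and Col4a3 lie head to head with a gap of 71 bases on chromosome 1, and Col4a6 and Col4a5 with a gap of 1308 bases on the X chromosome. The partners of each pair lay at different distances in level: Col4a5 exceeded Col4a6 by 3.98 and 3.97 times in the libraries, whereas Col4a4 (0.26 and 0.20) and Col4a3 (0.18 and 0.20), chains of the kidney glomerulus, were both below a TPM of 1.

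Col4a5, a chain of smooth muscle and kidney basement membranes, stood at 9.12 in replicate 1 and 10.65 in replicate 2, with disjoint intervals of 8.28 to 9.79 and 9.85 to 11.2. Its log2 ratio was 0.20 (adjusted p = 6.8e-06, exact binomial test). Col4a6, its neighbour, stood at 2.29 and 2.68 with overlapping intervals (adjusted p = 0.13, exact binomial test). The neighbours thus pointed the same way, and the call was made only for the more abundant.

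Types XV and XVIII are basement membrane collagens with interrupted helices, and the carboxy-terminal piece of type XVIII is endostatin. Col18a1 stood at 43.3 in replicate 1 and 49.6 in replicate 2, on 4444 and 6007 counts. Its intervals of 41.1 to 43.7 and 47.5 to 50.05 were disjoint (log2 ratio 0.19, adjusted p = 4.2e-12, exact binomial test). Col15a1 stood at 2.34 and 3.04, both below their own intervals of 2.52 to 4.80 and 3.13 to 5.20, and did not pass the exact binomial test (log2 ratio 0.27, adjusted p = 0.0702).

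The summed TPM of the basement membrane class was 159 in replicate 1 and 169 in replicate 2, a ratio of 1.06. Its median log2 ratio was 0.18. With spike-in scaling the median stayed above 0, at 0.08, but the ratio of the sums turned to 0.959 and Col4a1 lay lower in replicate 2, so the direction of the sum is not settled. The 8 endothelial markers, led by Cldn5 and Esam, were all detected and summed to 185 and 191. The 7 pericyte markers, led by Vtn and Pdgfrb, were all detected and summed to 199 and 189. Neither list differed between the libraries by as large a ratio as the choroid plexus list, of which 7 of 8 were detected and whose sum was 651 in replicate 1 and 1209.8 in replicate 2. That list was led by Ttr at 533 and 1022 and Enpp2 at 49.8 and 61.1, with 6 members higher by the count test, and its part in the basement membrane values was not tested.

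Among the cartilage-type genes the highest by TPM was not the cartilage fibril chain Col2a1 but Col9a3, a chain of the type IX collagen that decorates those fibrils. In replicate 1 the TPM intervals of these 2 genes overlapped. In estimated counts, not divided by length, Col2a1 was the higher, with 5194 and 4641 against 2746 and 3366. Col9a3 stood at 58.7 in replicate 1 and 61.04 in replicate 2 (log2 ratio 0.05, adjusted p = 0.199, exact binomial test), and its intervals overlapped. The other chains of type IX were lower, with Col9a2 at 11.9 and 10.66 and Col9a1 at 10.6 and 4.81. Col9a3 exceeded Col9a2 by 4.92 and 5.73 times. Some exons of Col9a3 overlap the opposite-strand gene Tcfl5, which had 12.2 and 9.15 counts against 2746 and 3366 for Col9a3, so the partner held few of the reads.

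Col9a1 gave the largest fold among cartilage-type genes, 2.21-fold higher in replicate 1 on 664 and 348 counts. Its intervals, 9.73 to 11.4 and 4.34 to 5.47, were far apart (log2 ratio -1.002, adjusted p = 6.4e-33, exact binomial test). Its partner Col9a2 did not pass the same exact test (log2 ratio -0.15, adjusted p = 0.358), so the ratio of Col9a1 to Col9a2 was 0.892 in replicate 1 and 0.451 in replicate 2. The balance between these chains of 1 collagen thus differed between the libraries, a difference that was not itself tested.

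Col2a1, the chain of the main cartilage fibril and also made by notochord and some embryonic epithelia, lies on chromosome 15 at 97975602 to 98004695. It stood at 56.6 in replicate 1 and 43.3 in replicate 2, with intervals of 53.7 to 58.9 and 41.4 to 45.8 (log2 ratio -0.38, adjusted p = 7.8e-37, exact binomial test). Col11a1, which nucleates cartilage fibrils, stood at 11.96 and 10.26, with overlapping intervals but a passed count test (log2 ratio -0.20, adjusted p = 2.5e-10, exact binomial test). Both libraries therefore held several-fold less Col11a1 than Col2a1, at ratios of 0.211 and 0.237. Col11a2 stood at 3.14 and 2.66 (adjusted p = 0.79, exact binomial test). Col10a1, the collagen of hypertrophic chondrocytes, had 7 and 5 counts, and its exons overlap the opposite-strand gene Nt5dc1 with 103 and 138 counts.

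The class summed to 153 in replicate 1 and 133 in replicate 2, with a median log2 ratio of -0.19. Of its members 3 were called lower and none higher, beside 5.49% and 7.07% of all genes tested. Cartilage markers outside the collagens were low: 1 of 10 was detected in both libraries, and the list summed to 15.2 in replicate 1 and 7.13 in replicate 2. The highest were Cnmd at 9.21 and 4.18 and Hapln1 at 1.55 and 0.88, 6 of the 10 were lower in replicate 2 by the count test, and the cartilage proteoglycan core Acan stood at 0.45 and 0.18. None of the 10 was at 0 in both libraries. The part of cartilage in the cartilage-type values was not tested.

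Transcript tables split these levels by form. Of the Col2a1 TPM, the form with the exon 2 shown above carried 62.35% in replicate 1 and 58.03% in replicate 2, or 60.2% ± 3.05 (SD, n = 2 libraries), on 3637 and 3048 estimated counts. The form that skips it carried 26.7% and 30.3%, on 1488 and 1524 counts. The form with the cysteine-rich exon was thus the more abundant in both libraries, by more than the spread between the libraries. A short retained-intron model of 613 nt took another 7.79% and 8.37% on 46.8 and 45.5 counts.

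Of the Col9a1 TPM, the form from the downstream start carried 92.2% and 94.8%, at a TPM of 9.81 and 4.56. The form from the upstream start carried 7.84% and 3.99%, at 0.83 and 0.19 on 64.4 and 17.5 counts. The short chain without the large amino-terminal domain was therefore the main form in both libraries, and the difference in Col9a1 between the libraries lay mostly in that form. This split by start site was chosen for description after its values were seen. In Col18a1, the form from the upstream start, known as the promoter of the short chain, carried 98.5% and 98.85%, and forms from the start that lies 52825 bases downstream in RefSeq carried 1.18% and 0.84%.

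**Figure D4:**
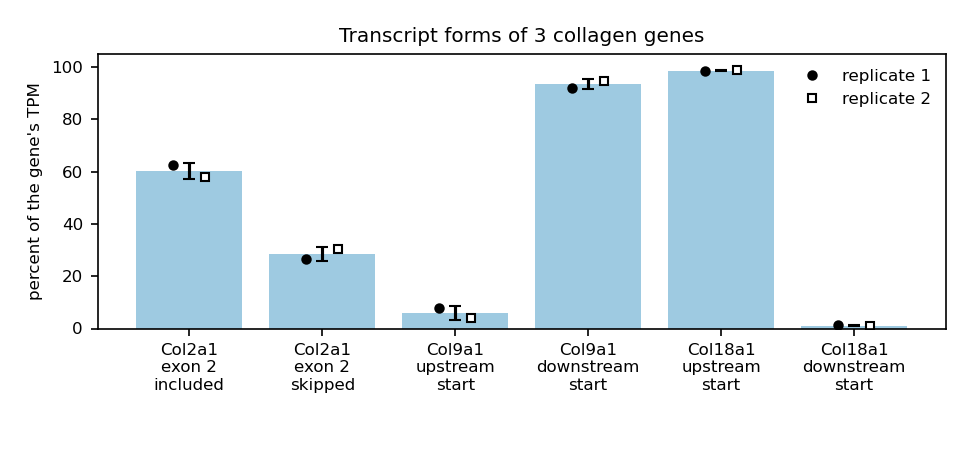
Share of the gene's TPM (percent) carried by transcript forms of Col2a1, Col9a1 and Col18a1; bars are means, error bars the SD over 2 libraries, and points the libraries. The Col2a1 form with exon 2 stands at 60.2%, the Col9a1 form from the downstream start at 93.5% and the Col18a1 form from the upstream start at 98.7%.

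The other class holds genes of unlike roles. It summed to 136 TPM in replicate 1 and 111 in replicate 2, with a median log2 ratio of -0.20. In this class 7 genes were called lower and 2 higher, beside 5.49% and 7.07% of all genes tested. Type VI was its most abundant group. Type VI collagen forms beaded filaments around cells, and its common chains Col6a1 and Col6a2 stood close together, at 23.4 and 22.5 in replicate 1 and 19.5 and 19.05 in replicate 2. The ratio of Col6a1 to Col6a2 was 1.04 and 1.03. Both were lower in replicate 2 with disjoint intervals, at log2 ratios of -0.25 and -0.23 (adjusted p = 4.3e-06 and 9.0e-05, exact binomial test). The genes lie 85161 bases apart in the same direction on chromosome 10.

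Col6a3, the long partner chain of type VI, stood at 8.09 in replicate 1 and 5.21 in replicate 2 with disjoint intervals of 6.70 to 9.88 and 4.44 to 6.60. Its raw counts were almost equal, 743 and 754, although replicate 2 was the deeper library. The log2 ratio was -0.55 for TPM and -0.19 for CPM (adjusted p = 0.0607, exact binomial test). The effective length behind the TPM was 4445 in replicate 1 and 5935 in replicate 2. A short model of 646 nt was assigned 45.5% and 35.1% of the gene's TPM on 41.6 and 24.4 counts. The difference of Col6a3 was thus larger in TPM than in CPM. In CPM it was near those of Col6a1 and Col6a2, at log2 ratios of -0.24 and -0.22. Col6a4, Col6a5 and Col6a6, which lie side by side on chromosome 9, were all below a TPM of 1. Col6a5 had 17 counts in replicate 1 and 2 in replicate 2, which passed the exact binomial test (adjusted p = 0.00213) although its TPM of 0.09 and 0.06 had overlapping intervals.

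Fibril-associated collagens outside cartilage held several of the larger differences. Col16a1 had the greatest TPM fold of the 32 genes, and Col12a1 was close to Col9a1 in CPM, at 2.19-fold against 2.22-fold without a pseudocount. Col16a1, which sits on fibrils of skin and other tissues (chromosome 4, 130047840 to 130099283), stood at 11.7 in replicate 1 and 4.65 in replicate 2, or 2.52-fold. The intervals were 10.9 to 16.1 and 5.08 to 7.95, the second of which excludes its own TPM. In counts the difference was 600 against 402, 1.74-fold in CPM (adjusted p = 5.4e-16, exact binomial test), so the direction and the call held on both scales while the size did not. A short 3-exon model of 833 nt took 32.5% and 21.4% of the gene's TPM on 57.8 and 17.8 counts, and the effective length was 2474 and 3545.

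Col12a1, a fibril-associated collagen of tendon, periosteum and other dense tissue, stood at 10.1 in replicate 1 and 5.45 in replicate 2 on 1012 and 537 counts. Its log2 ratio was -0.79 for TPM and -1.08 for CPM (adjusted p = 6.8e-49, exact binomial test), with intervals of 9.10 to 11.6 and 4.48 to 6.60. Here the counts gave the larger difference, the reverse of Col16a1. The longest model, of 11511 nt, held 27.6% and 23.01% of the TPM but 65.1% and 64.98% of the counts, and a model of 1784 nt held 40.7% and 34.4% of the TPM.

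Against these, Col22a1, a fibril-associated collagen of muscle-tendon junctions, was higher in replicate 2, at 3.22 and 5.04, or 1.57-fold (log2 ratio 0.52, adjusted p = 3.5e-09, exact binomial test). Its intervals, 2.56 to 4.90 and 4.29 to 6.75, overlapped. Col14a1, a relative of Col12a1, stood at 3.07 and 3.08 with a log2 ratio of 0.00 for TPM and -0.08 for CPM (adjusted p = 0.705, exact binomial test). Of these fibril-associated chains, Col12a1 was thus lower and Col22a1 higher in replicate 2, while Col14a1 hardly differed. Col19a1, known from muscle and some neurons, stood at 0.99 and 1.14 and was the single gene that reached a mean of 1 without being detected in both libraries. It lies tail to tail with Col9a1 at a distance of 9205 bases, and the log2 ratios of the neighbours were 0.10 for Col19a1 and -1.002 for Col9a1. Muscle markers, 4 of 6 of which were detected, summed to 48.55 and 58.1, led by Actc1 at 36.4 and 41.7, and their part in the Col22a1 value was not tested.

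Type VIII is a short-chain network collagen of vessels and the cornea, and its chains differed in opposite directions. Col8a2 stood at 8.20 in replicate 1 and 6.21 in replicate 2 (log2 ratio -0.35, adjusted p = 4.0e-05, exact binomial test). Col8a1 stood at 3.48 and 4.20 (log2 ratio 0.22, adjusted p = 0.0325, exact binomial test). The intervals of each were disjoint, and the ratio of Col8a1 to Col8a2 was 0.424 and 0.676. Under spike-in scaling the adjusted p of Col8a1 was 0.237 in the exact binomial test, and the call was lost.

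Transmembrane collagens span the cell membrane and were low to moderate, and none of the 4 passed the count test. Col23a1 stood at 5.59 and 5.75 and was the highest of them. Col25a1, which motor axons need to reach muscle, stood at 2.73 and 2.56, and Col13a1, found at the neuromuscular synapse, at 2.59 and 1.96. The exact binomial test gave adjusted p = 0.703, 0.689 and 0.149 for these genes. Col17a1, a hemidesmosome component of skin, had 9 and 10 counts.

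Col26a1, first described in testis and ovary, was the highest gene of the other class at 27.5 in replicate 1 and 24.4 in replicate 2, on 1348 and 1406 counts. Its intervals of 25.8 to 30.5 and 23.1 to 27.2 overlapped, and its count test was passed narrowly (log2 ratio -0.17, adjusted p = 0.0354, exact binomial test). Its 2 main models, both of 13 exons, differed in share: the one of 2781 nt carried 53.3% and 67.55% and the one of 2724 nt carried 32.5% and 17.1%. That difference was not tested.

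The remaining low genes were Col7a1 of skin anchoring fibrils, at 0.66 and 0.45, Col20a1 at 0.56 and 0.70, and Col28a1, known from peripheral nerve, at 0.62 and 0.89. In all, 12 collagen genes had a mean TPM below 1, between 0.075 and 0.755, on 2 to 90 counts in a library. Col20a1 shares exons with a same-strand transcript, BX649560.1, which had 69 and 100 counts against 29 and 29 for Col20a1, so its level is uncertain. At these depths differences between the libraries were mostly not detectable.

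Several abundant genes had annotated short models that weigh on TPM. Of the 22 collagen genes that averaged 5 TPM or more, 11 had their highest transcript at 90% or more of the TPM, and the other 11 had at least 2 transcripts at 10% or more. In Col3a1 the full-length model carried 76.1% and 75.9% of the TPM but 96.4% of the counts in each library. A model of 737 nt carried 23.02% and 23.97% of the TPM on 841 and 853 counts. In Col4a5 the 53-exon model carried 52.8% and 55.9% and a 21-exon model 45.35% and 39.8%.

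The enzymes, chaperones and partners that make collagen usable were mostly detected, with those of folding and secretion at the highest levels. Of 81 genes in 8 lists, 72 were detected and 78 were tested, of which 14 were lower in replicate 2 and 10 higher, beside the 5.49% and 7.07% of all genes. Their median log2 ratio was -0.03. Hydroxylation of proline and lysine stabilises the helix, and 14 of its 15 genes were detected with none called in either direction. That list was led by the cyclophilin Ppib at 285 and 282 and the prolyl hydroxylase subunit P4hb at 243 and 241, with the galactosyltransferase Colgalt2 lowest at 2.33 and 2.00. All 10 genes of folding and secretion were detected, 2 lower and 3 higher, led by the collagen-binding Sparc at 532 and 526 and the chaperone Hspa5 at 355 and 370.28. The collagen-specific chaperone Serpinh1 stood at 299 and 308 (adjusted p = 0.00214, exact binomial test), and the lowest was the transcription factor Creb3l1 at 1.99 and 1.08. Calls in the 8 lists were made with TMM only. The 3 called higher here, Serpinh1, Hsp90b1 and Hspa5, had log2 ratios in CPM of 0.06, 0.08 and 0.10. Spike-in scaling shifts every gene by -0.14, so their direction depends on the scaling.

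Genes that act on collagen after secretion were moderate. Of 8 propeptide-processing genes 6 were detected, 3 lower and 1 higher, with the proteinase Bmp1 at 26.75 and 22.4, its enhancer Pcolce at 21.2 and 18.01, and Tll1, the lowest detected, at 1.88 and 1.76. Of 5 cross-linking oxidases 4 were detected and 2 were lower, with Lox at 7.74 and 5.85, Loxl1 at 6.43 and 6.52, Loxl2 at 6.81 and 4.69, and Loxl3, the lowest detected by mean, at 5.29 and 4.76. The cross-linking list had the lowest median log2 ratio of the 8 lists, -0.24. Of 7 fibril-binding proteoglycans 6 were detected, 3 lower and 1 higher, with Dcn at 71.2 and 69.3, Lum at 62.7 and 56.6 and Fmod, the lowest detected, at 6.23 and 5.94. Ogn was the single list gene past a 1.5-fold difference with the count test passed and a mean TPM of 5 or more, at 12.1 and 6.63 (adjusted p = 3.1e-18, exact binomial test).

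Of 12 genes of collagen cleavage and its inhibitors 10 were detected, 3 lower and 1 higher, with the membrane collagenase Mmp14 at 38.7 and 40.6, Mmp16 at 36.9 and 40.1 and Timp1 lowest at 4.02 and 4.07. Of 12 collagen receptors 10 were detected, none lower and 2 higher, with the kinase Ddr1 at 103 and 112.55, the adhesion receptor Adgrg1 at 94.7 and 96.1 and Itga2 lowest at 1.12 and 1.40. All 12 other basement membrane components were detected, 1 lower and 2 higher, with Agrn at 108 and 97.6, Nid2 at 37.7 and 38.5 and Lama5 lowest at 1.72 and 1.53. Their median log2 ratio was 0.00, against 0.18 for the basement membrane collagens. The median was below 0 in 4 of the 8 lists.

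Markers of neural tissue were looked at last. No list of hindbrain markers was used, so the region named in the label was not checked. Neuronal markers summed to 4082 and 3907 TPM, led by Tubb3 and Stmn2, and radial glia and progenitor markers to 2746 and 3013, led by Fabp7 and Vim. Schwann cell and ganglion markers summed to 140.3 and 157, led by Pou4f1 and Prph. Genes on the skin list, 2 of 6 of which were detected, summed to 11.5 and 18.1, led by Krt18 at 6.36 and 11.8 and Krt8 at 3.58 and 5.48. Both were higher in replicate 2 by the count test. The other genes on that list, Krt5, Krt14, Krt15 and Trp63, did not exceed a TPM of 1 in either library. The 1 of them called, Krt15, was lower in replicate 2. The sum of the list thus rested on Krt18 and Krt8, and whether their reads came from skin was not tested. The neuronal and progenitor lists were thus high in both libraries.

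**Figure D5:**
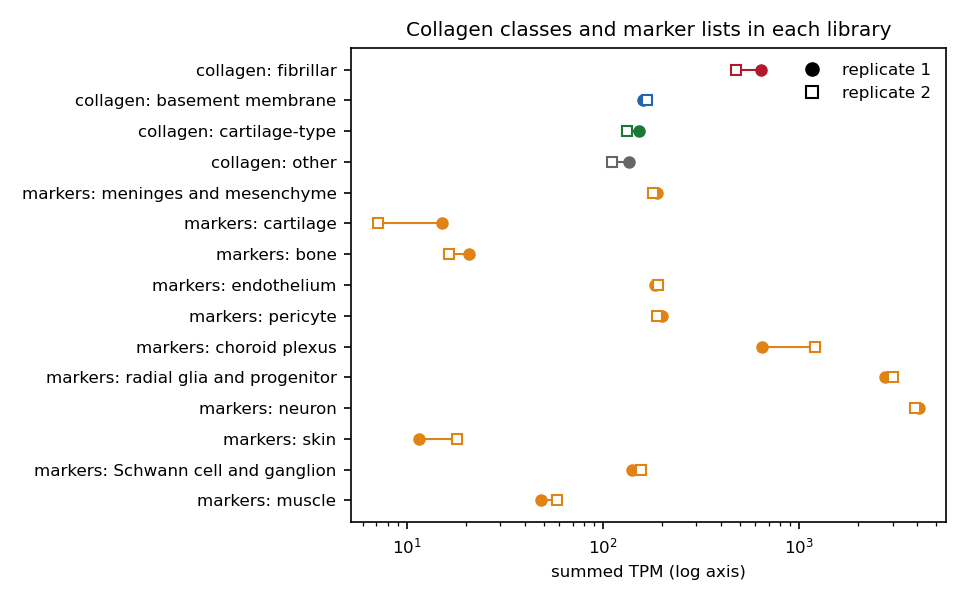
Summed TPM (log axis) of the 4 collagen classes and of 11 marker lists in replicate 1 (filled circles) and replicate 2 (open squares), joined by a line. The widest gaps are in the cartilage list, 15.2 against 7.13, and the choroid plexus list, 651 against 1210.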

How the data were processed

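The estimated counts (expected counts), TPM, FPKM, posterior means, TPM interval bounds and the percent of a gene's TPM per transcript were deposited by the authors for genes and for transcripts of each library, per the file headers. TPM, as deposited by the authors, also counts the spike-ins in its total. FPKM, deposited by the authors, served only as an alternative. The percent of TPM per transcript was likewise deposited by the authors. The build is mm10 with GENCODE M4, per the deposited notes. Which aligner, counter, versions and strand setting were used is not given in the sources used here. Gene names, types and positions came from GENCODE M21 on GRCm38, matched by identifier, and promoter windows of 250 bases before to 50 bases after a start from RefSeq on GRCm38.p6, which held 38 windows for 35 of the 44 genes.

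The members and gene lists were chosen with earlier results of these data known. Counts were rounded, and library sizes (32314690 and 37772696 rounded Ensembl counts) were scaled by TMM in edgeR 4.0.16 (R 4.3.3). With 1 group no quasi-likelihood test exists, so a two-sided exact binomial test (SciPy 1.17.1) was run on 19687 genes with at least 10 counts. Benjamini-Hochberg adjustment was used, with a threshold of 0.05. The test was tried on simulated counts that held counting error only, so the simulation cannot show its behaviour under further spread between libraries. The test covers counting error only, and without molecular identifiers the reads are not independent. DESeq2 1.42.0 size factors, spike-in scaling and other units, pseudocounts and filters were alternatives. Levels are log2(value + 1), which understates differences of low genes. Every collagen gene whose mean TPM reached 1 was named, the 2 highest and the lowest detected gene of each list, list genes past 1.5-fold whose mean TPM reached 5, and the 2 highest markers; Serpinh1, Loxl2, Acan, Bglap, Ibsp and the overlapping genes were named in addition after their values were seen.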

Additional observations from a re-analysis of the deposited data

How the results depend on the processing

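No paired analysis was possible because the libraries form a single group. Of the alternatives to the class, count and form values, 96 stayed within the spread or within 1.5 times and 28 moved. Of those to single genes and chain ratios, 142 held, 7 moved, 3 lost their call and 1 reversed. No called collagen gene changed direction. Detected genes numbered 20 at a TPM of 5 or more. Counting the cartilage fibril chains as fibrillar gave shares of 62.7% for fibrillar and 8.04% for cartilage-type. Keeping only type IV as basement membrane gave 11.7% for that class and 17.5% for other genes. By estimated counts the shares were 20.8% for basement membrane, 10.3% for cartilage-type and 10.05% for other genes, and by posterior mean TPM 13.04% for other genes. Median levels on the log2 scale with FPKM were 3.32 for fibrillar, 2.13 for basement membrane, 2.99 for cartilage-type and 1.55 for other genes. With a pseudocount of 0.1 they were 2.39 for basement membrane and 1.67 for other genes, and with posterior means 2.86 and 2.01. Over genes whose mean TPM reached 1 they were 5.53 for fibrillar, 4.29 for basement membrane, 3.61 for cartilage-type and 2.78 for other genes. The order of basement membrane and cartilage-type genes thus turned.

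The basement membrane median log2 ratio was 0.11 at a mean TPM of 5 or more and 0.093 over all its members. With spike-in scaling, added for the classes after the data were seen, the medians were -0.41 for fibrillar, 0.083 for basement membrane and -0.37 for cartilage-type genes. The same median over all genes whose mean TPM reached 1 was -0.13. Under that scaling the count test called 20 collagen genes lower and 3 higher in place of 15 and 4, while the shares of all genes called became 37.5% and 2.82%. The Col2a1 form with exon 2 held 67.9% of the gene's counts, and posterior means gave 90.2% for the downstream start of Col9a1 and 98.01% for the upstream start of Col18a1. The log2 ratio of Col1a1 over Col1a2 was 0.02 on average, -0.15 without replicate 1 and 0.19 without replicate 2. At an adjusted p threshold of 0.01 the calls of Col8a1 and Col26a1 were lost. Differences between the libraries have no value with either library left out, and for the genes below a TPM of 1 depth limits every comparison. Apart from these constructions the cause of each change was not tested.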
